A study of Rattus norvegicus with 24 samples.

Results

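The 8 miRNAs described here are those best known from inflammation and from cells of the myeloid lineage: both arms of miR-223 and of miR-142, miR-146a-5p and miR-146b-5p, miR-155-5p and miR-21-5p. They were named with earlier results of these data known, and all 8 were present among the 1098 miRNAs of the count table. Small RNA was sequenced from the paraventricular nucleus of the hypothalamus (PVN) and the central nucleus of the amygdala (CEA) of male Sprague–Dawley rats, bought at 7 weeks of age and adapted to the housing before use. There were 4 treatments. Normal control (NC) rats had no operation, and hepatectomy (HT) rats lost about 20% of the left liver lobe under isoflurane. HT + EA rats also received electroacupuncture at the Zusanli and Sanyinjiao points for 30 min, 24 h before the operation and again straight after it, and HT + SEA rats had the needles placed at the same points without current. Rats of all 4 treatments, the controls included, were held awake in the restraint device for the same time, and the brains were collected 24 h later than the last session. With 3 libraries for each nucleus under each treatment, there were 8 groups and 24 libraries. According to the methods, the sample from 1 rat was limited, so brain samples came from different animals of 1 batch. The methods name 12 rats in all, and there were 24 libraries. Whether PVN and CEA libraries of a treatment come from the same rats is not stated, so it is not known what same-numbered libraries share, and p-values measure the spread between these libraries only.

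A miRNA is cut from a hairpin precursor, either strand of which (the 5p or the 3p arm) can be loaded into an Argonaute protein, and it pairs with messenger RNAs mainly through its seed, bases 2 to 8. MiR-223 is made chiefly by neutrophils, monocytes and other myeloid cells and restrains their maturation and inflammatory signalling, while miR-142 is found in nearly all white blood cells and, in the brain, in microglia. MiR-146a and miR-146b are induced by NF-kB and dampen the signalling of Toll-like receptors through TRAF6 and IRAK1. MiR-155 is induced in activated macrophages, microglia and lymphocytes and favours inflammation. MiR-21 is expressed in most cell types, glia among them, and is raised in injury and inflammation.

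The mature sequences of the 8 miRNAs are shown because their seeds group them, with the seed in capitals. All 8 names matched RefSeq, and the positions are those of RefSeq's annotation of GRCr8. The prefix rno, for rat, is left out after this.
rno-miR-223-3p: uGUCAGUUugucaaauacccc
rno-miR-223-5p: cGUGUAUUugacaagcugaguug
rno-miR-142-3p: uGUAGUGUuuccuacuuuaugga
rno-miR-142-5p: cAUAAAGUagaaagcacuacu
rno-miR-146a-5p: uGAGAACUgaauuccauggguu
rno-miR-146b-5p: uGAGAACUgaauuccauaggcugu
rno-miR-155-5p: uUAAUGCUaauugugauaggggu
rno-miR-21-5p: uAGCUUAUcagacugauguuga

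Only miR-146a-5p and miR-146b-5p shared a seed, GAGAACU, and among the 637 rows of the table with a RefSeq sequence no other miRNA carried the seed of any of the 8. Aligned from their 5′ ends over 22 bases, miR-146b-5p differed from miR-146a-5p by the substitutions G18A and U21C, counted from 1 at the 5′ end with the base of miR-146a-5p first, and ended in 2 extra bases. Their first 17 bases were identical. No other row of the table lay within 5% of the counts of any of the 8 in every library, so none of them was a copy of another row.

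The hairpins lie in 6 loci. MiR-223-3p lies at chrX:65151450-65151470 and miR-223-5p at chrX:65151408-65151430, both on the plus strand within the long noncoding RNA gene LOC120099372, with the macrophage gene Vsig4 as the nearest coding gene, 2930 bases away. MiR-142-3p (chr10:73055155-73055177) and miR-142-5p (chr10:73055119-73055139) lie on the plus strand within the bounds of the coding gene Tspoap1. MiR-146a-5p lies at chr10:28350053-28350074 on the minus strand within the noncoding gene LOC134480673, and miR-146b-5p at chr1:255144874-255144897 on the plus strand within the bounds of C1h10orf95. MiR-155-5p lies at chr11:37261117-37261139 on the plus strand within its noncoding host gene Mir155hg. MiR-21-5p lies at chr10:71902653-71902674 on the minus strand and overlapped no other annotated gene, and Vmp1 was 532 bases from its hairpin. The table of genes gives bounds and not exons, so exon or intron is not stated.

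Library totals ranged from 6584345 to 14913564 counts, and the PVN NC libraries (6584345 to 10668808) were shallower than the PVN HT + EA libraries (12134529 to 14828269). Levels are given as CPM, counts per 1000000 counts of the library. A count of 3, taken as the floor of detection, equalled 0.201 to 0.456 CPM, a limit that covers counting error only. The mean correlation of a library with the others of its group was between 0.985 and 0.994 across miRNAs, a measure that also takes in the differences in abundance between miRNAs. Single libraries did stand apart, and CEA HT replicate 1 did so in several miRNAs at once. It was the lowest CEA library for miR-150-5p (167 CPM), miR-24-3p (2557) and miR-451-5p (49.3), but not for miR-342-3p (398) or miR-144-3p (2.88). The markers of nervous tissue were present in every library, with the neuronal miR-124-3p at 914 CPM or more and the oligodendrocyte miR-219a-2-3p at 1595 CPM or more.

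The 8 miRNAs spanned more than 4 orders of magnitude on the CPM scale. Over all 24 libraries the median was 6943 CPM for miR-21-5p, the 27th most abundant of 1098 miRNAs by mean CPM, and 1164 CPM for miR-146b-5p, ranked 79. MiR-146a-5p had a median of 179 CPM, miR-142-5p 44.98 and miR-142-3p 39.7. MiR-223-3p (5.36 CPM) and miR-155-5p (4.77 CPM) were scarce, and miR-223-5p, at 0.280 CPM and between 1 and 12 counts in a library, lay at the floor. CPM of different miRNAs are set side by side as reads only, since adapter ligation captures miRNAs with unequal efficiency.

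MiR-223-3p varied between libraries far more than the other members. Its lowest library held 0.886 CPM and its highest 89.0, a 100-fold range, against a 1.34-fold range for miR-146b-5p and 3.18-fold for miR-21-5p. The standard deviation between the 3 libraries of a group, pooled over the 8 groups on the log2 CPM scale, was 1.36 for miR-223-3p, the 6th largest among 532 miRNAs with a mean of at least 10 counts, where the median miRNA had 0.26. The other 6 members that passed this minimum lay between 0.11 (miR-146b-5p, ranked 510) and 0.32 (miR-155-5p, ranked 179). MiR-223-5p did not reach it. Among the 8, miR-223-3p was thus the exception, and the others lay on both sides of the median miRNA.

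In the PVN, miR-223-3p was at 22.3, 89.0 and 81.2 CPM in the NC libraries (replicates 1 to 3), at 1.02, 1.40 and 1.54 in the HT libraries, at 10.3, 8.98 and 11.9 in the HT + EA libraries and at 11.1, 1.58 and 1.49 in the HT + SEA libraries. In the CEA it was at 1.27, 10.7 and 10.8 CPM in NC, at 0.906, 0.912 and 0.886 in HT, at 1.24, 12.5 and 10.5 in HT + EA and at 19.0, 1.38 and 1.74 in HT + SEA. The 24 libraries fell at separate levels: 12 lay between 0.886 and 1.74 CPM (9 to 22 counts), none lay between 1.74 and 8.98 CPM, and the other 12 lay between 8.98 and 89.0 CPM (109 to 949 counts). All 6 HT libraries lay at the low level and all 3 PVN NC and all 3 PVN HT + EA libraries at the high level. The other 4 groups each held libraries of both levels. Their group means, such as 7.58 ± 5.47 CPM (SD, n = 3) in CEA NC, therefore describe no single library.

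**Figure D1:**
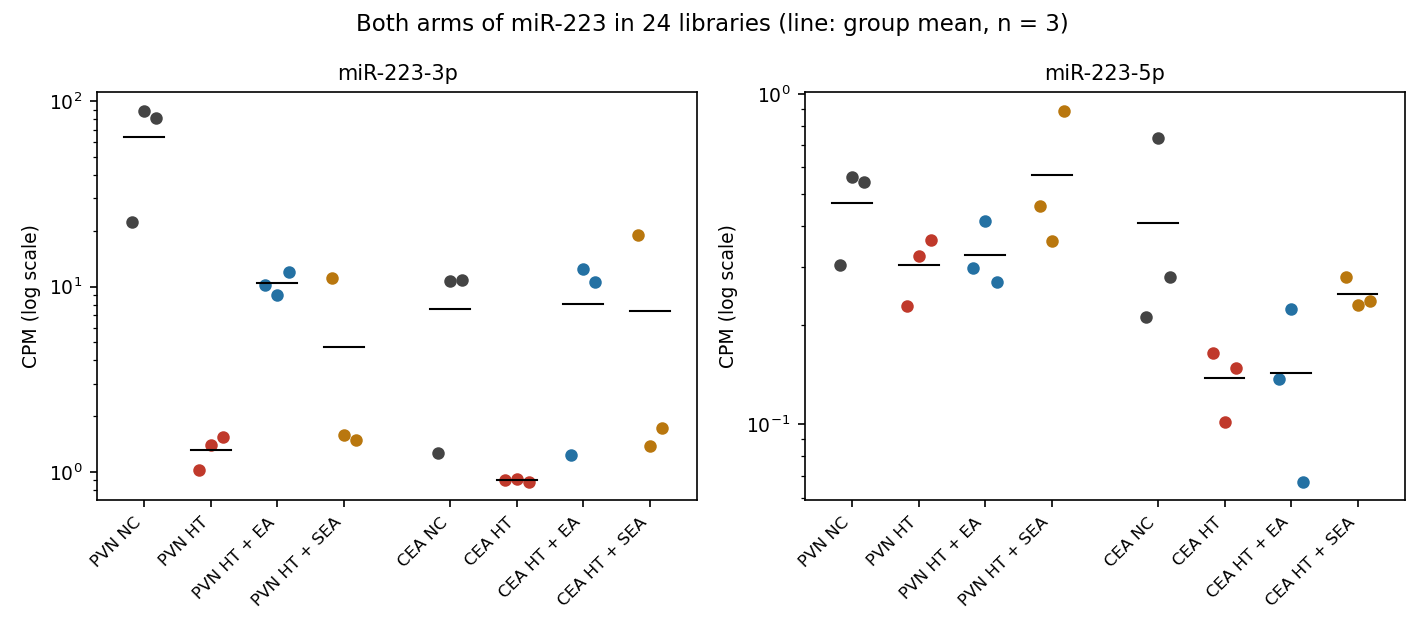
CPM on a log axis of miR-223-3p (left) and miR-223-5p (right) in each of the 24 libraries by nucleus and treatment, with a line at the mean of the 3 libraries of each group. For miR-223-3p no library lies between 1.74 and 8.98 CPM and all 6 HT libraries lie below that gap, while miR-223-5p stays between 0.0671 and 0.892 CPM.

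The width of this gap was set beside that of every other miRNA with a mean of at least 10 counts, a measure chosen after the values of miR-223-3p had been seen. With at least 6 libraries on each side, the widest gap between neighbouring libraries was 2.35 on the log2 scale for miR-223-3p, the 2nd widest of 532 miRNAs, where the median gap was 0.15. The miRNA with the widest gap was miR-653-3p (2.69), whose 12 libraries above it were all from the PVN. Of the 12 libraries above the gap of miR-223-3p, 7 were from the PVN. The gap of miR-21-5p was 0.23 and also split the libraries by nucleus, with none of the 12 PVN libraries above it. The remaining members had gaps of at most 0.14, so the split into separate levels that did not follow the nucleus was that of miR-223-3p among the members.

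The first question of the design is what hepatectomy does in each nucleus, and HT was compared with NC. No group had anaesthesia and incision without resection, so these cannot be told apart from the loss of liver. In the PVN, miR-223-3p stood at 1.32 ± 0.266 CPM (SD, n = 3) in HT and 64.2 ± 36.4 in NC, 49.1-fold lower on the fitted scale, and the groups did not overlap. Its log2 fold change was -5.62 (standard error 0.72) with an unadjusted p of 0.000686. In edgeR (quasi-likelihood test, p-values adjusted by Benjamini-Hochberg over all miRNAs) the adjusted p of 0.0615 missed the threshold of 0.05. None of the 8 members was called in this comparison, where 0.811% of 986 miRNAs were called, and 1 of 8, miR-223-3p, had an unadjusted p under 0.05, as 10% of all miRNAs did. The median log2 fold change of the 8 was -0.05 and that of all miRNAs -0.01.

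The call for miR-223-3p in the PVN after HT differed between fits. In this fit its spread rested almost wholly on its own 6 libraries, with a prior weight of 0.792 degrees of freedom against 478 for miR-142-3p. It was called in 5 of 7 other fits, with adjusted p = 0.00266 after edgeR's filter on low counts and 0.0308 with all 12 PVN libraries in the fit, and not with DESeq2's size factors (0.0900) or library totals (0.0995) as the scale. With 1 library left out, edgeR's adjusted p was at most 3.60e-63 without any 1 NC library and 0.0376 without HT replicate 1, and it was 0.184 without HT replicate 2 and 0.352 without HT replicate 3. The log2 fold change itself stayed between -6.05 and -5.31 in all of these fits.

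In the CEA, miR-223-3p fell after HT, from 7.58 ± 5.47 CPM in NC to 0.901 ± 0.0134 in HT (SD, n = 3 each). The log2 fold change was -2.98 (standard error 0.54, edgeR's adjusted p = 0.0161). The groups did not overlap, although NC replicate 1, at 1.27 CPM, lay near the HT libraries. It was the only member called, 1 of 8, and the only miRNA called in this comparison, 0.1% of 996, while 3.01% had an unadjusted p under 0.05. With 1 HT library left out the call was lost, with edgeR's adjusted p = 0.9998 without replicate 1, 0.0853 without replicate 2 and 0.697 without replicate 3, and it held without any 1 NC library. It was also lost after the filter on low counts (0.981) and with all 12 CEA libraries in the fit (0.985), and it held with the replicate number as a block (1.26e-05), where 6 miRNAs were called in all. The log2 fold change lay between -3.47 and -2.57 in all of these fits.

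The difference between the nuclei in the effect of HT on miR-223-3p was -2.71 on the log2 scale (standard error 1.22), a larger drop in the PVN, and edgeR's test of this interaction gave an unadjusted p of 0.0561 and an adjusted p of 0.9999. None of the 8 members and 0% of 1064 miRNAs were called for this interaction, and 0 of 8 had an unadjusted p under 0.05, against 3.38% of all. The call for miR-223-3p changed with the library left out: of 12 such fits, 9 made it, with an adjusted p of at most 0.00344, and it was not made without CEA HT replicate 1, PVN NC replicate 3 or PVN HT replicate 1, each at 0.9998. The size of the difference stayed between -3.11 and -2.17.

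The other arm of the same hairpin, miR-223-5p, was at 0.304, 0.562 and 0.543 CPM in PVN NC and at 0.228, 0.323 and 0.362 in PVN HT. These values are 2 to 6 counts, around the floor of 3. Its log2 fold changes of -0.66 (standard error 0.87) in the PVN and -1.45 (standard error 1.003) in the CEA were not called, with edgeR's adjusted p of 0.814 and 0.931. The groups overlapped in the PVN. In the CEA they did not, at 0.211 to 0.734 CPM in NC and 0.101 to 0.165 in HT, on counts of 1 to 10.

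Markers of other cells moved with the HT and NC groups in the PVN. The 4 red-cell miRNAs (miR-451-5p, both arms of miR-144 and miR-486, all detected in every library) summed to between 270 and 336 CPM in PVN NC and between 228 and 244 in PVN HT, without overlap, and miR-451-5p had a log2 fold change of -0.54 (standard error 0.17, edgeR's adjusted p = 0.102) and miR-486 of -0.36 (standard error 0.18, edgeR's adjusted p = 0.499). Both arms of miR-144 were at 0.00 (standard errors 0.23 and 0.25). The summed striated-muscle list of 3 miRNAs was at 44.0 to 109 CPM in NC and 20.5 to 30.6 in HT. The epithelial list of 5 was at 21.6 to 74.8 and 10.5 to 18.1, and the neuronal list of 3 was at 8977 to 11349 and 13914 to 15592. Of these lists, the neuronal miR-128-3p (log2 fold change 0.52, standard error 0.12, edgeR's adjusted p = 0.0100) rose and the epithelial miR-429 (-1.95, standard error 0.49, edgeR's adjusted p = 0.0172) fell. The neuronal sum was mostly miR-128-3p, with a PVN median of 9834 CPM beside 1388 for miR-124-3p and 349 for miR-138-5p. MiR-124-3p passed at neither threshold. At the unadjusted threshold only, miR-138-5p, miR-338-3p and the mural-cell miR-145-5p were higher, and miR-200b-3p, miR-200c-3p, miR-133a-3p and miR-206-3p lower. The part of each of these in the level of miR-223-3p was not tested, and in tissue pieces of this kind fewer cells of a type and less RNA per cell cannot be told apart.

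The summed list of 9 lymphocyte and other leukocyte miRNAs, of which miR-24-3p is the most abundant in the PVN, lay at 3282 to 3666 CPM in PVN NC and 3011 to 4216 in PVN HT, and at 4225 to 5144 and 3689 to 4808 in the CEA, overlapping in both nuclei. MiR-150-5p, abundant in mature lymphocytes, had log2 fold changes after HT of 0.24 (standard error 0.17, edgeR's adjusted p = 0.729) in the PVN and 0.13 (standard error 0.19, edgeR's adjusted p = 0.986) in the CEA. MiR-511, which is encoded within the macrophage gene Mrc1, had at most 7 counts from either arm in a library. Its 3p arm was at 0.304 to 0.656 CPM in PVN NC and 0.0905 to 0.114 in PVN HT, without overlap, on counts of 2 to 7 and 1 (log2 fold change -2.08, standard error 1.096, edgeR's adjusted p = 0.514). No marker of any list was at 0 in all 3 libraries of a group. None of the 9 was called after HT in either nucleus, and miR-27a-3p had an unadjusted p under 0.05 in the PVN. In the CEA the red-cell list was at 160 to 249 CPM in NC and 94.5 to 208 in HT, with overlap, and both miR-451-5p (log2 fold change -0.46, standard error 0.20, edgeR's adjusted p = 0.931) and miR-144-3p (-0.75, standard error 0.32, edgeR's adjusted p = 0.931) passed at the unadjusted level only. The epithelial list lay at 4.65 to 23.9 CPM in CEA NC and 3.55 to 6.99 in CEA HT, with overlap and a median log2 fold change of -1.22, and the striated-muscle list at 24.9 to 47.4 and 21.3 to 34.7. None of their miRNAs was called, and miR-200b-3p (-1.54, standard error 0.46), miR-206-3p (-0.60, standard error 0.24) and the oligodendrocyte miR-219a-5p (-0.43, standard error 0.20) were lower at the unadjusted threshold. The part of these lists in the fall in the CEA was not tested. Most of the red-cell and leukocyte miRNAs had their lowest CEA value in HT replicate 1.

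The second question is what electroacupuncture adds to the operation, and HT + EA was compared with HT. These comparisons share their HT libraries with those of HT against NC, so the opposite signs of the same miRNA in both are not separate evidence. In the PVN, miR-223-3p rose from 1.32 ± 0.266 CPM in HT to 10.4 ± 1.48 in HT + EA (SD, n = 3 each), a log2 fold change of 2.997 (standard error 0.28, edgeR's adjusted p = 7.97e-13). Its prior weight here was 57.2 degrees of freedom, the same as for miR-142-3p, so its spread rested largely on that of other miRNAs. The standard error was nearly the same without robust estimation (0.27). The groups did not overlap, and every HT + EA library lay below every NC library of the PVN. It was 1 of 8 members called at the adjusted and at the unadjusted threshold, where 1.02% and 10.8% of 985 miRNAs passed. Leaving out any 1 of the 6 libraries kept the call, as did 6 of 7 other fits, and it was lost with all 12 PVN libraries in the fit (adjusted p = 0.305), where the NC and HT + SEA libraries enter the same estimate of the spread. With the replicate number as a block, where 28 miRNAs were called in place of 10, the log2 fold change was 3.003 (edgeR's adjusted p = 2.42e-23).

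In the CEA, miR-223-3p was at 8.07 ± 6.0 CPM in HT + EA and 0.901 ± 0.0134 in HT, and its log2 fold change of 2.997 was as large as in the PVN but with a standard error of 0.96. HT + EA replicates 2 and 3 were at 12.5 and 10.5 CPM and replicate 1 at 1.24. It was not called, with 0.0287 as the unadjusted and 0.916 as the adjusted p from edgeR. None of the 1004 miRNAs was called in this comparison (0%), and 4.18% had an unadjusted p under 0.05, miR-223-3p alone among the 8. DESeq2 called 1 miRNA, which was miR-223-3p (adjusted p = 0.000886). Without HT + EA replicate 1, its log2 fold change was 3.49 and edgeR's adjusted p 3.07e-14. It was also called without robust estimation of the spread (0.000366), and not in the fits with other scales, the filter or all 12 libraries. Beside it the epithelial list lay at 6.03 to 16.2 CPM in HT + EA and 3.55 to 6.99 in HT of the CEA, with overlap and a median log2 fold change of 0.90. No listed marker was called, and at the unadjusted threshold the epithelial miR-200b-3p was higher (1.53, standard error 0.45), while the neuronal miR-128-3p (-0.40, standard error 0.16) and the oligodendrocyte miR-219a-5p (-0.71, standard error 0.24) were lower. Their part in the result was not tested. The effect of EA did not differ detectably between the nuclei: the interaction for miR-223-3p was -0.06 (standard error 0.996, edgeR's adjusted p = 0.9998), an error that leaves room for a difference of 1 log2 unit and more in either direction. None of the 8 was called for it at either threshold, as 0% of 1051 miRNAs were at the adjusted and 1.71% at the unadjusted one.

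Beside the rise in the PVN, the red-cell list lay at 228 to 323 CPM in HT + EA and 228 to 244 in HT, with overlap, and its miR-144-3p fell (log2 fold change -0.98, standard error 0.21, edgeR's adjusted p = 0.00459). The other red-cell miRNAs had positive values, miR-486 of 0.42 (standard error 0.14, without overlap, edgeR's adjusted p = 0.133), miR-144-5p of 0.21 (standard error 0.22) and miR-451-5p of 0.17 (standard error 0.14), and the median of the 4 was 0.19. The leukocyte list lay at 3262 to 3541 CPM in HT + EA and 3011 to 4216 in HT, with overlap, and none of its 9 miRNAs passed at either threshold, though miR-511-3p did not overlap on counts of 2 to 5 and 1 (log2 fold change 1.09, standard error 1.13). The neuronal list was at 10839 to 11552 CPM in HT + EA and 13914 to 15592 in HT, without overlap, and miR-128-3p fell (-0.39, standard error 0.10, edgeR's adjusted p = 0.0310), as did the oligodendrocyte miR-219a-5p (-0.94, standard error 0.15, edgeR's adjusted p = 1.24e-05). The other oligodendrocyte miRNAs were not called and had opposite signs, miR-219a-2-3p at 0.29 (standard error 0.11, edgeR's adjusted p = 0.213) and miR-338-3p at -0.43 (standard error 0.15, edgeR's adjusted p = 0.175). The epithelial list lay at 15.6 to 71.6 CPM in HT + EA and 10.5 to 18.1 in HT, with overlap. It had a median log2 fold change of 1.54 and no call, and miR-200c-3p and miR-429 were higher at the unadjusted threshold. So was miR-206-3p of the striated-muscle list, at 13.3 to 18.1 CPM in HT + EA and 8.51 to 15.7 in HT. The summed striated-muscle list lay at 24.5 to 28.8 CPM in HT + EA and 20.5 to 30.6 in HT, with overlap. The part of these lists in the rise was not tested.

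**Figure D2:**
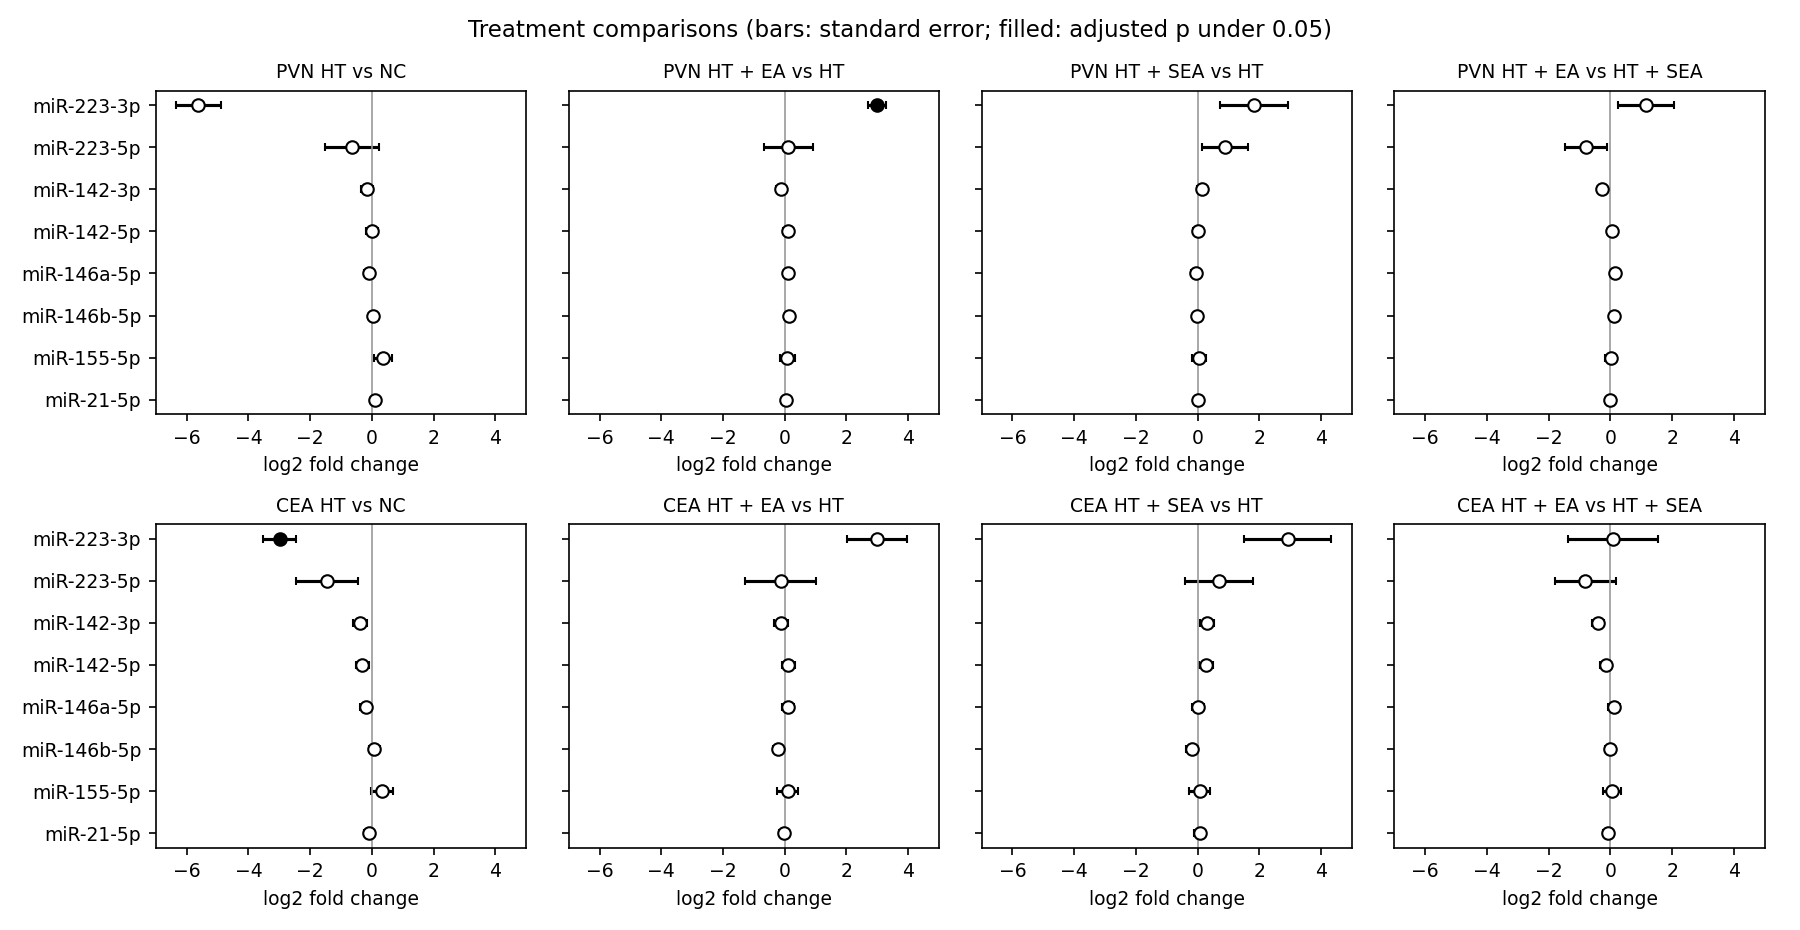
Log2 fold change (x axis) of the 8 miRNAs (y axis) in the 8 treatment comparisons, 4 in the PVN (top) and 4 in the CEA (bottom), with bars of 1 standard error and filled points where edgeR's adjusted p was under 0.05. The filled points are miR-223-3p in PVN HT + EA vs HT (2.997) and in CEA HT vs NC (-2.98), and the members other than miR-223 lie between -0.41 and 0.36.

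The third question is whether needling without current does the same, and here the libraries of a group disagreed. In the PVN, HT + SEA replicate 1 was at 11.1 CPM of miR-223-3p, within the range of the HT + EA libraries, and replicates 2 and 3, at 1.58 and 1.49, lay with HT. The log2 fold change against HT was 1.82 (standard error 1.096, edgeR's adjusted p = 0.740), and it was 0.22 without HT + SEA replicate 1. In the CEA, replicate 1 was at 19.0 CPM and replicates 2 and 3 at 1.38 and 1.74, and the log2 fold change against HT was 2.92 (standard error 1.41, edgeR's adjusted p = 0.946), or 0.67 without replicate 1. In both nuclei a single library carried the difference. The epithelial list did not overlap, at 27.9 to 33.5 CPM in HT + SEA and 10.5 to 18.1 in HT of the PVN, and at 12.5 to 19.0 and 3.55 to 6.99 in the CEA. Of its 5 miRNAs, 2 rose in each nucleus, miR-200a-3p (log2 fold change 1.34, edgeR's adjusted p = 1.30e-06, and 1.62, edgeR's adjusted p = 0.0106) and miR-200b-3p (1.32, edgeR's adjusted p = 2.78e-05, and 1.96, edgeR's adjusted p = 0.0106). The red-cell list lay at 253 to 297 CPM in HT + SEA of the PVN, above HT, and at 165 to 332 in the CEA, with overlap, and none of it or of the leukocyte list was called. The neuronal list lay at 10010 to 13356 CPM in HT + SEA of the PVN, below HT, with no call. At the unadjusted threshold miR-486 was higher and miR-128-3p, miR-138-5p, miR-338-3p and the striated-muscle miR-133a-3p and miR-1-3p were lower in the PVN, and miR-451-5p (0.66, standard error 0.21, edgeR's adjusted p = 0.341) and miR-206-3p were higher in the CEA. The striated-muscle list lay at 19.7 to 23.05 CPM in HT + SEA of the PVN and 30.8 to 51.4 in the CEA, overlapping with HT in both. The part of these lists in the level of miR-223-3p was not tested. None of the 8 was called against HT at either threshold in the PVN, where 0.6% and 8.1% of 1000 miRNAs passed, nor in the CEA, where 0.3% and 4.4% of all miRNAs did. In CEA HT + SEA vs HT, DESeq2 gave miR-223-3p no adjusted p, and edgeR called it without robust estimation (adjusted p = 0.000847). DESeq2 called none of the other members there, and none of the 8 in the other comparisons with sham or in either interaction.

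Set directly against sham, HT + EA gave no call among the 8. MiR-223-3p had log2 fold changes of 1.15 in the PVN (standard error 0.89, edgeR's adjusted p = 0.801) and 0.09 in the CEA (standard error 1.46, edgeR's adjusted p = 0.997). Without HT + SEA replicate 1, these were 2.73 (edgeR's adjusted p = 2.16e-24) and 2.33 (0.981). In the PVN the call thus turned on that library, and also on how the spread was estimated. With all PVN libraries of the comparison kept and no robust estimation, the log2 fold change was again 1.15 (standard error 0.19, edgeR's adjusted p = 3.20e-07). MiR-142-3p was lower after EA than after sham in both nuclei at the unadjusted threshold only, with a log2 fold change of -0.28 in the PVN (standard error 0.12, edgeR's adjusted p = 0.466) and -0.41 in the CEA (standard error 0.19, edgeR's adjusted p = 0.997). Its HT + EA libraries were at 35.2, 28.7 and 36.1 CPM and its HT + SEA libraries at 44.9, 40.2 and 36.0 in the PVN, where they just overlapped. In the CEA they were at 40.1, 36.3 and 29.97 and at 47.2, 41.1 and 50.2, without overlap. With 1 library left out the unadjusted pass held in 3 of 6 fits in the PVN and 2 of 6 in the CEA, and in the PVN it was lost with DESeq2 and with all 12 libraries. The red-cell miR-144-3p moved the same way in these comparisons, by -0.89 in the PVN (standard error 0.16, edgeR's adjusted p = 7.30e-05) and -1.12 in the CEA (standard error 0.29, edgeR's adjusted p = 0.191), and its part in the result was not tested. The other 3 red-cell miRNAs lay between -0.09 and 0.04 in the PVN, where the median of the 4 was -0.03, and in the CEA the median was -0.46, with miR-451-5p lower at the unadjusted threshold (-0.58, standard error 0.17, edgeR's adjusted p = 0.316). The oligodendrocyte miR-219a-5p was called lower in the PVN (-0.70, standard error 0.16, edgeR's adjusted p = 0.0255). At the unadjusted threshold the striated-muscle miR-206-3p was higher in the PVN (0.34, standard error 0.15) and lower in the CEA (-0.55, standard error 0.21). In the PVN 1.81% of 994 miRNAs passed at the adjusted and 6.94% at the unadjusted threshold, and in the CEA 0% and 2.44% of 1026, which a count of 1 of 8 at the unadjusted level does not set apart.

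The members other than miR-223 showed no call in any of the 8 treatment comparisons. Their 48 log2 fold changes lay between -0.41 and 0.36, with standard errors from 0.09 to 0.35, and the smallest adjusted p was 0.466. MiR-21-5p moved least, between -0.09 and 0.11, and with standard errors of at most 0.18 a change by a whole log2 unit would have exceeded its error several times over. MiR-146a-5p stayed between -0.20 and 0.16 and miR-146b-5p between -0.22 and 0.15. MiR-155-5p was on the higher side in all 8, from 0.01 to 0.36, but with only 26 to 105 counts in a library and standard errors up to 0.35 none of these was distinguishable from 0.

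**Figure D3:**
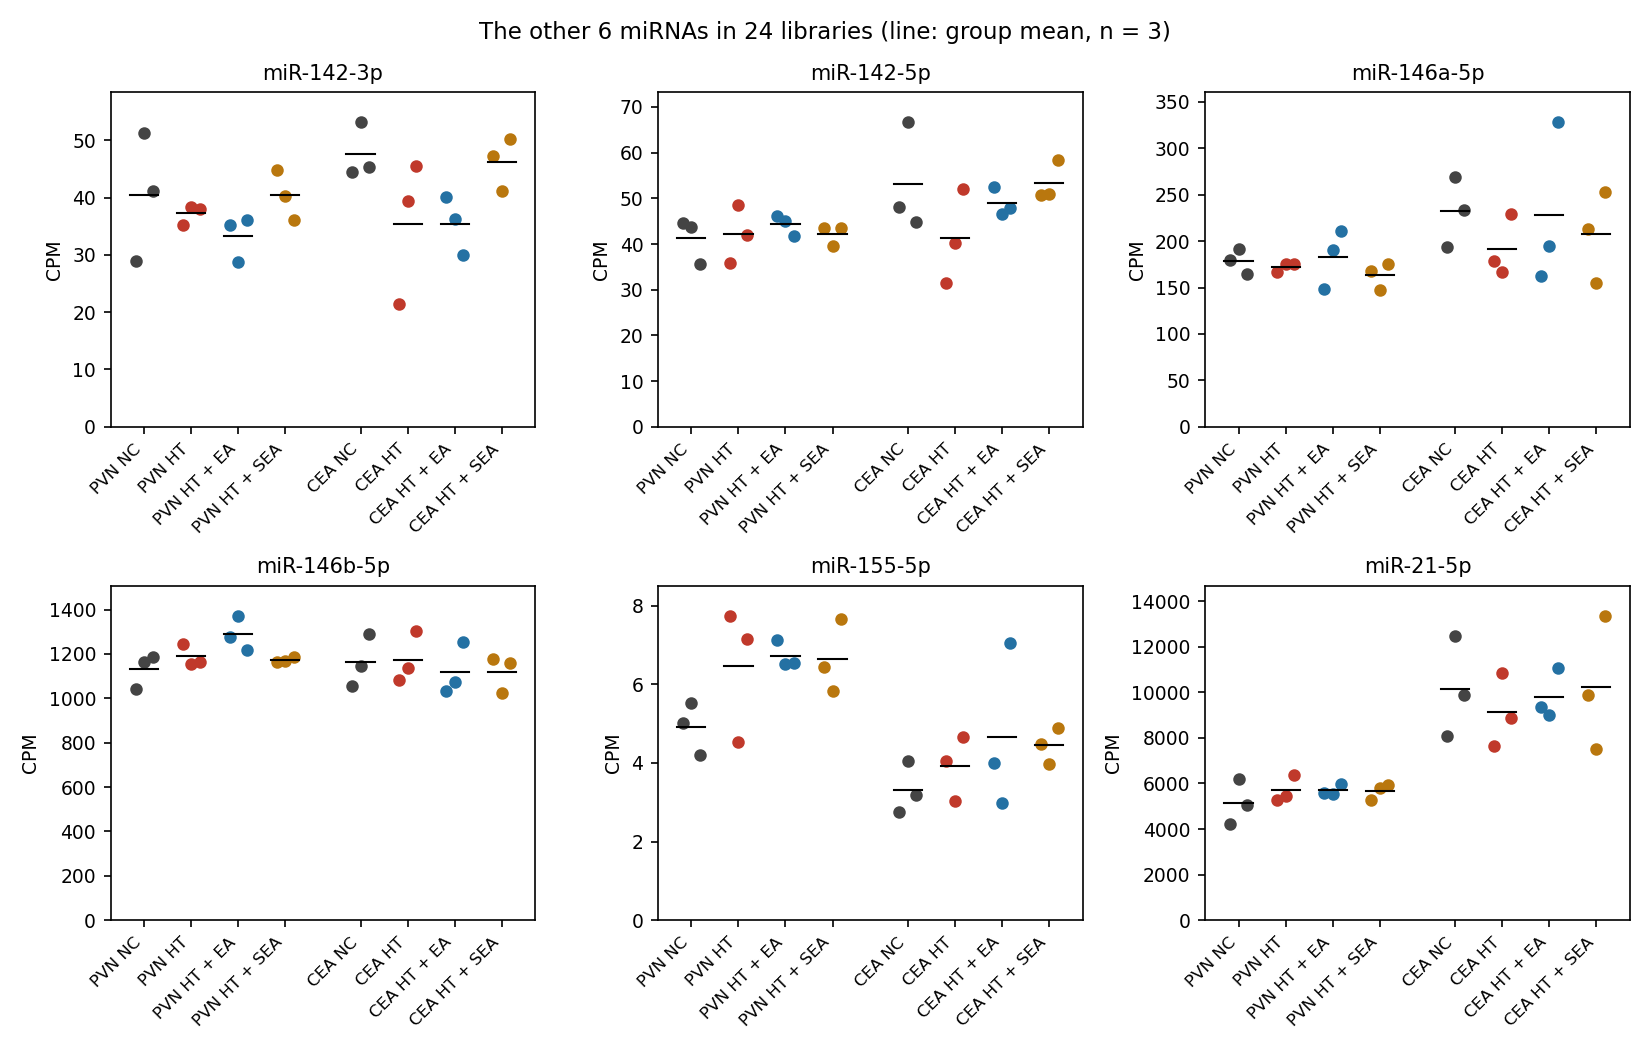
CPM (linear axes from 0) of miR-142-3p, miR-142-5p, miR-146a-5p, miR-146b-5p, miR-155-5p and miR-21-5p in each library by nucleus and treatment, with a line at the mean of the 3 libraries. The treatments overlap within each nucleus in most panels, and all 12 PVN libraries of miR-21-5p (at most 6394 CPM) lie below all 12 CEA libraries (at least 7493 CPM).

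The values by library are given for miR-155-5p, the miRNA of activated phagocytes. In the PVN it was at 5.01, 5.53 and 4.21 CPM in NC, at 7.74, 4.53 and 7.15 in HT, at 7.13, 6.51 and 6.54 in HT + EA and at 6.43, 5.83 and 7.66 in HT + SEA. The NC libraries lay below all libraries of the needled groups, but HT replicate 2 lay among the NC libraries, and HT against NC gave 0.36 on the log2 scale (standard error 0.29, edgeR's adjusted p = 0.783). In the CEA the 4 treatments overlapped, with NC at 2.75, 4.04 and 3.17 CPM and HT + EA replicate 3 the highest at 7.04.

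MiR-142, the general white-cell miRNA, was read from both arms at similar levels. In PVN HT vs NC, miR-142-3p had a log2 fold change of -0.16 (standard error 0.20) and miR-142-5p of -0.01 (standard error 0.20). In CEA HT vs NC they had -0.38 (standard error 0.22) and -0.31 (standard error 0.22), with edgeR's adjusted p at 0.931 for both. HT replicate 1 of the CEA was the lowest of all 24 libraries for both arms, at 21.3 and 31.5 CPM. HT replicate 2 (39.4 and 40.2 CPM) lay just below the NC libraries, and HT replicate 3 lay among them. The largest of these 4 differences was 1.30-fold, while miR-223-3p differed in the same libraries by 49.1-fold in the PVN and 7.90-fold in the CEA on the fitted scale.

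The pairs of members were also compared across the 12 libraries of each nucleus, as a description. In log2 CPM, miR-223-3p and miR-142-3p had r = 0.29 in the PVN and 0.08 in the CEA, and miR-223-3p and miR-142-5p had 0.03 and 0.17. The arms of miR-142 had r = 0.72 in the CEA and -0.21 in the PVN. In the CEA, miR-146a-5p had r of 0.61 to 0.62 with miR-146b-5p, miR-155-5p and miR-21-5p. The lowest r among pairs was -0.48, between miR-223-3p and miR-155-5p in the PVN. These libraries share treatments and depth, and no test was made.

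The arms of each hairpin come from the same transcript, and their ratio compares reads within a library. For miR-223 the 3p arm held 2344 of the reads of both arms in the PVN and the 5p arm 57, and 959 and 36 in the CEA. Summed over the 3 libraries of a group, the 3p arm exceeded the 5p arm 141-fold in PVN NC, 4.33-fold in PVN HT, 32.6-fold in PVN HT + EA and 8.13-fold in PVN HT + SEA. In the CEA the ratio was 18.2 in NC, 6.40 in HT, 57.0 in HT + EA and 31.2 in HT + SEA. The ratio followed the 3p arm, whose counts ran from 9 to 949, while the 5p arm stayed between 1 and 12 counts. In PVN HT the 3p share was 81.0% to 81.8% per library, with exact 95% binomial intervals reaching down to 48.2% and up to 97.7%, and in PVN NC it was 98.7% to 99.4%, with intervals from 95.2% to 99.8%. PVN HT + SEA replicate 3 had the lowest share, 62.5% (43.7% to 78.9%), from 20 and 12 counts. These intervals cover counting error only.

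For miR-142 the 3p arm was 38.5% to 54.0% of the reads of both arms over the 24 libraries. The ratio of the 3p to the 5p arm, summed over a group, was lowest in HT + EA of both nuclei, at 0.759 in the PVN and 0.721 in the CEA, and lay between 0.851 and 1.02 in the other 6 groups. The libraries overlapped, with PVN NC replicate 1 at 0.646 and CEA HT replicate 1 at 0.676 among the HT + EA values of 0.625 to 0.863. This ratio was not tested.

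**Figure D4:**
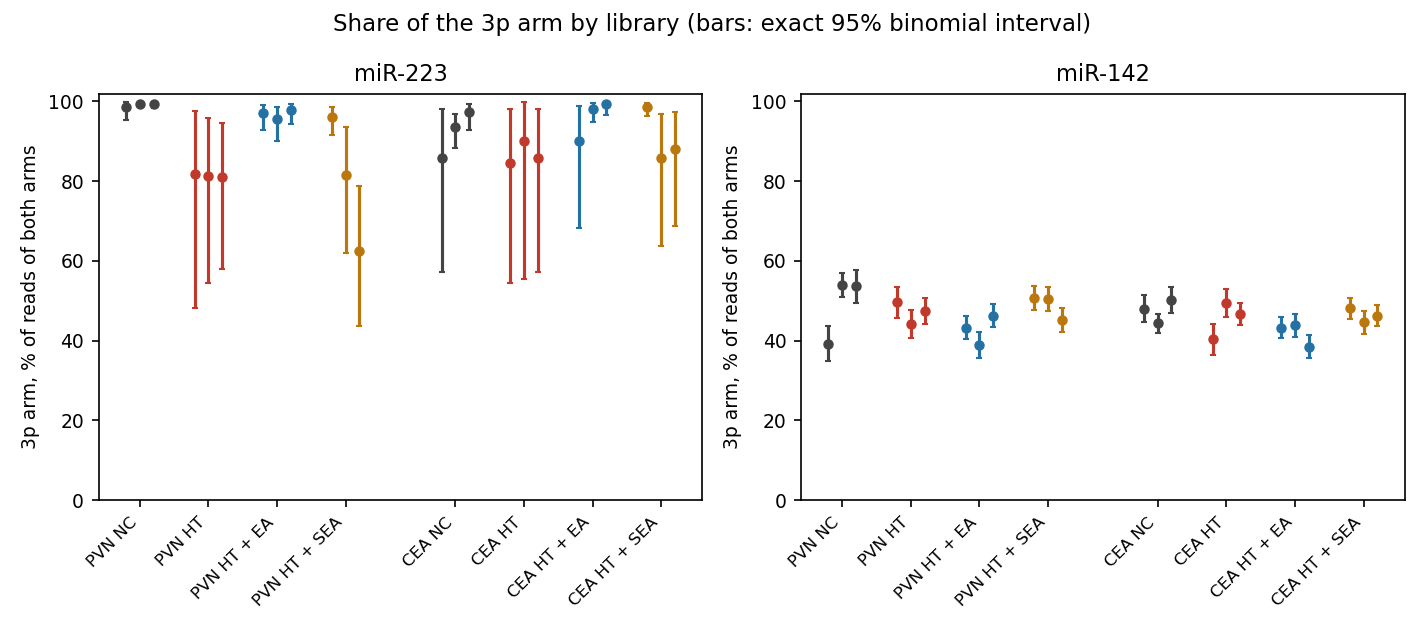
Share of the 3p arm in the reads of both arms (%) of miR-223 (left) and miR-142 (right) in each library, with exact 95% binomial intervals that cover counting error only. The share of miR-223 lies between 62.5% and 99.4% with wide intervals in the libraries of few reads, and that of miR-142 between 38.5% and 54.0%.

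The other arms of the remaining hairpins were rare. MiR-21-5p outnumbered miR-21-3p 21080-fold in the PVN and 18546-fold in the CEA, miR-146a-5p outnumbered miR-146a-3p 290-fold and 278-fold, and miR-155-5p outnumbered miR-155-3p 56.8-fold and 49.1-fold, where miR-155-3p had at most 4 counts in a library. MiR-146b-3p was the only one above trace level, at 73 to 216 counts in the PVN and 72 to 151 in the CEA. None of the 4 other arms passed at either threshold in any of the 8 treatment comparisons.

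Between the nuclei, over all 24 libraries with treatment in the fit, 5 of 8 members were called, where 40% of 1098 miRNAs were called and 45% had an unadjusted p under 0.05. Their directions were mixed. MiR-21-5p was lower in the PVN, at 4205 to 6394 CPM (median 5569) against 7493 to 13350 (median 9609) in the CEA, without overlap, and its log2 difference was -0.87 (standard error 0.08, edgeR's adjusted p = 4.11e-12). MiR-146a-5p was lower in the PVN by -0.35 (standard error 0.10, edgeR's adjusted p = 0.00333) and miR-142-5p by -0.25 (standard error 0.08, edgeR's adjusted p = 0.0128). MiR-155-5p was higher in the PVN by 0.54 (standard error 0.13, edgeR's adjusted p = 0.000757), at 4.21 to 7.74 CPM (median 6.47) against 2.75 to 7.04 (median 4.01). The called members thus did not share a direction.

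MiR-146b-5p did not differ detectably between the nuclei, with a log2 difference of 0.02 (standard error 0.06, edgeR's adjusted p = 0.879), at 1042 to 1371 CPM in the PVN and 1026 to 1304 in the CEA. The ratio of miR-146b-5p to miR-146a-5p, the pair that shares a seed, was 5.79 to 8.60 (median 6.85) in the PVN and 3.82 to 6.81 (median 5.51) in the CEA. On the log2 scale it was 2.78 ± 0.17 (SD, n = 12) and 2.44 ± 0.25 (SD, n = 12), a difference of 0.34. This was not tested, since the ratio was picked after its values were seen and restates the difference in miR-146a-5p beside that in miR-146b-5p. MiR-146b-3p, the other arm, was higher in the PVN by 0.47 (standard error 0.10, edgeR's adjusted p = 0.000109), while miR-146b-5p was not called.

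For the remaining members the nuclei were not separated firmly. MiR-142-3p had a log2 difference of -0.15 (standard error 0.09, edgeR's adjusted p = 0.219). MiR-223-5p, at 0.228 to 0.892 CPM in the PVN and 0.0671 to 0.734 in the CEA, was higher in the PVN by 0.82 (standard error 0.34, edgeR's adjusted p = 0.0487) on counts of at most 12, and leaving out a single library ended the call for 21 of the 24 libraries, as did taking same-numbered PVN and CEA libraries of a treatment as pairs (0.0665), which changed no other member's call. MiR-223-3p had a difference of 0.85 (standard error 0.63, edgeR's adjusted p = 0.332) with medians of 9.62 CPM in the PVN and 1.56 in the CEA, and without CEA HT + SEA replicate 1 it was 1.496 (adjusted p = 0.0335). These differences stand beside those of whole cell classes: 3 of 3 neuronal and 3 of 3 oligodendrocyte miRNAs were called lower in the PVN, as were both endothelial miRNAs (miR-126a-3p, log2 difference -0.34, standard error 0.06, edgeR's adjusted p = 4.28e-06), and 5 of 5 epithelial miRNAs were called higher. The part of cell makeup in the members' differences was not tested.

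The wider list of 8 miRNAs that respond to inflammation was described in the same comparisons. It holds miR-132-3p, miR-147, miR-187-3p, miR-125a-5p, miR-125b-5p, let-7i-5p, miR-34a-5p and miR-203a-3p. None of the 8 was called in any treatment comparison, and at most 3 of 8 passed at the unadjusted threshold in any, in PVN HT vs NC (1 higher and 2 lower, beside 10% of all miRNAs), PVN HT + EA vs HT (2 higher and 1 lower, beside 10.8%) and PVN HT + EA vs HT + SEA (1 higher and 2 lower, beside 6.94%). Its median log2 fold change after HT was -0.07 in the PVN and -0.08 in the CEA, beside -0.01 and -0.02 for all miRNAs. Between the nuclei 5 of 8 were called, where 40% of all miRNAs were, miR-125b-5p and miR-147 higher in the PVN and miR-132-3p, miR-187-3p and miR-34a-5p lower. MiR-147, induced by Toll-like receptor stimulation, was higher by 1.40 (standard error 0.23, edgeR's adjusted p = 1.74e-06) and, like miR-155-5p, scarce, at 0.814 to 1.99 CPM in the PVN and 0.247 to 0.951 in the CEA. Of the 9 leukocyte miRNAs, 4 were called between the nuclei, beside the same 40%, miR-150-5p, miR-17-5p, miR-20a-5p and miR-24-3p, all lower in the PVN.

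The miRNAs whose levels ran most nearly parallel to a member were found by Pearson's r of log2 CPM over the 12 libraries of a nucleus, among 524 miRNAs in the PVN and 534 in the CEA. For miR-223-3p in the PVN they were the muscle miRNA miR-206-3p (r = 0.84), miR-1b (0.73) and miR-3548 (0.72). In the CEA they were miR-10b-5p (0.82), encoded in a Hox cluster, miR-205 (0.79) and miR-500-3p (0.71), so the nearest miRNAs were different ones in the 2 nuclei. No white-cell miRNA was among them. Of those nearest in the PVN, only miR-1b was called in PVN HT vs NC (log2 fold change -1.01, standard error 0.17, edgeR's adjusted p = 1.51e-05).

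MiR-10b-5p moved with miR-223-3p in the PVN after EA as well. It was at 36.9, 28.0 and 45.1 CPM in HT and at 128, 135 and 174 in HT + EA, without overlap, and it rose by 2.03 (standard error 0.16, edgeR's adjusted p = 9.30e-14). In HT + SEA it was at 134 CPM in replicate 1 and at 31.0 and 30.6 in replicates 2 and 3, the same order as for miR-223-3p. In the CEA it was at 26.9, 201 and 177 CPM in NC, at 13.5, 55.1 and 59.8 in HT, at 37.5, 140 and 178 in HT + EA and at 159, 11.4 and 68.8 in HT + SEA, so replicate 1 of NC and of HT + EA were the low libraries for both miRNAs and replicate 1 of HT + SEA the high one. The levels parted in PVN NC, where replicate 2 held the most miR-223-3p (89.0 CPM) and the least miR-10b-5p (43.8 CPM, with 343 and 196 in the others). MiR-206-3p was instead highest in that library, at 91.0 CPM, with 25.7 and 32.9 in the other NC libraries and 8.51 to 15.7 in PVN HT.

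The other members had other nearest miRNAs. For miR-142-3p they were miR-665 (r = 0.79), miR-24-1-5p (0.78) and the endothelial miR-126a-3p (0.74) in the PVN and the red-cell miR-144-3p (0.90), miR-374-3p (0.86) and miR-143-5p (0.86) in the CEA. For miR-142-5p they were miR-339-3p (0.77), miR-448-3p (0.73) and let-7c-1-3p (0.72) in the PVN and miR-9a-3p (0.86), miR-450a-5p (0.81) and miR-450b-5p (0.78) in the CEA. For miR-21-5p they were miR-3570 (0.93), miR-181a-1-3p (0.93) and miR-7a-1-3p (0.85) in the PVN and the oligodendrocyte miR-219a-2-3p (0.91), miR-219b (0.91) and miR-181b-5p (0.91) in the CEA.

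For miR-146a-5p the nearest were miR-143-3p (0.66), miR-320-3p (0.61) and miR-135b-3p (0.58) in the PVN and miR-1b (0.84), miR-31a-3p (0.81) and miR-325-5p (0.80) in the CEA. For miR-146b-5p they were miR-92a-3p (0.87), miR-361-3p (0.82) and miR-3065-3p (0.79) in the PVN and miR-384-5p (0.86), miR-24-2-5p (0.83) and miR-126a-3p (0.79) in the CEA. For miR-155-5p, at few counts, they were miR-299b-5p (0.69), miR-299a-3p (0.65) and miR-3084a-5p (0.64) in the PVN and miR-501-3p, miR-3560 (0.72 each) and miR-27b-5p (0.71) in the CEA. No miRNA was among the nearest 3 of the same member in both nuclei. These are the highest of very many correlations over 12 libraries that share treatments and depth, and they carry no test.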

How the data were processed

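The authors made small RNA libraries with a NEBNext kit and deposited raw read counts for each miRNA of each library. For the sequencing as a whole the paper names HISAT2, run against a rat genome, and featureCounts, while the labels name a human build. Which miRNA annotation was counted, and how reads matching several miRNAs were treated, is not given in the sources used here, so reads of miR-146a-5p and miR-146b-5p, alike in their first 17 bases, may have been divided in an unknown way. A further 24 columns of scaled values were not used. Groups come from the sample titles.

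The 8 members and the marker lists were chosen with earlier results of these data known. Counts were tested with edgeR 4.0.16 (limma 3.58.1, R 4.3.3) by the quasi-likelihood test with TMM scaling, on the 6 libraries compared and over miRNAs with at least 1 count. Estimation was robust, because the ordinary estimate was known to leave very variable miRNAs almost no spread of their own. In PVN HT + EA vs HT, miR-223-3p nonetheless had the same prior weight as the other members. A call is a Benjamini-Hochberg adjusted p under 0.05, and the unadjusted p under 0.05, the paper's threshold, is counted beside it. PVN vs CEA had treatment as a covariate over 24 libraries, and the interactions used 12. Standard errors were taken as the size of the log2 fold change over the square root of F. Named miRNAs are the 8 members, the 3 with the highest r for each member with a mean of at least 10 counts in a nucleus (log2 CPM on TMM-scaled totals, 0.5 added to each count), the listed markers called in a comparison, and the red-cell and lymphocyte miRNAs, given where they bear on the text. MiR-653-3p, the rank of the spread and of the gaps, the ratio of miR-146b-5p to miR-146a-5p and the library values of miR-10b-5p and miR-206-3p were chosen after values were seen. Other CPM are counts over library totals.

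Alternatives were DESeq2 1.42.0, its size factors, library totals, filterByExpr, no robust estimation, the replicate number as a block, all 12 libraries of the nucleus, and each library left out. A pairing of same-numbered PVN and CEA libraries within a treatment was added after seeing the data. Same-numbered libraries deviated together, every pair above r = 0.1, in PVN HT + EA vs HT (0.14 to 0.31) and CEA HT vs NC (0.21 to 0.43), and not in the other 6 treatment comparisons. Between the PVN and the CEA they did so within NC (0.18 to 0.30) and HT + SEA (0.37 to 0.55), and not within HT or HT + EA. The test was checked on counts simulated from PVN HT vs NC, where 109 of 190 changed miRNAs were called and 6.84% of calls were false. Each simulated miRNA had a single level per group, so the check does not cover levels split within a group, as those of miR-223-3p. Figures were drawn with matplotlib 3.10.9 in Python 3.11.15 (numpy 2.4.6, pandas 2.3.3, scipy 1.17.1). Sequences and positions are from RefSeq's tables for GRCr8.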

Additional observations from a re-analysis of the deposited data

How the results depend on the processing

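MiR-223-5p was read at 1 to 12 counts per library and miR-155-5p at 26 to 105, and the 3 libraries of a group limit every comparison. Each of 88 results (8 members in 11 comparisons) was recomputed, 1353 values in all: 1293 kept their side of the threshold, 31 lost a call, 29 gained one and none reversed as a called result. The sign of 41 results that were not called changed in some fit. The number of members called, always through miR-223-3p in the treatment comparisons, moved as follows. In PVN HT vs NC it was 1 in place of 0 with DESeq2, filterByExpr, no robust estimation, the replicate block and all 12 libraries, and 0 to 1 with a library left out. In PVN HT + EA vs HT it was 0 in place of 1 with all 12 libraries, and 1 whichever library was left out. In CEA HT vs NC it was 0 in place of 1 with filterByExpr and all 12 libraries, and 0 to 1 with a library left out. In CEA HT + EA vs HT it was 1 in place of 0 with DESeq2, no robust estimation and the replicate block, and 0 to 1 with a library left out. In CEA HT + SEA vs HT it was 1 in place of 0 with no robust estimation and the replicate block. In PVN HT + EA vs HT + SEA and in the interaction of HT with the nucleus it was 1 in place of 0 with no robust estimation, and 0 to 1 with a library left out. In PVN vs CEA it was 4 to 5 throughout. With the replicate block, the other counts of members called were unchanged. MiR-142-5p was not called between the nuclei with library totals (adjusted p = 0.0717), and miR-142-3p was called without CEA HT replicate 1 (0.0187). Whichever library was left out, 0 members were called in HT + SEA vs HT of either nucleus, in CEA HT + EA vs HT + SEA and in the interaction of EA with the nucleus. MiR-223-5p was not tested with filterByExpr, and DESeq2 gave no adjusted p for 4 results, which are not counted. Between fits the standard error of miR-223-3p could change at an unchanged log2 fold change. Without robust estimation it was 0.29 in place of 0.72 in PVN HT vs NC, at -5.62 in both fits. In the interaction of HT with the nucleus it was 0.54 in place of 1.22, at -2.71 in both. The cause of these changes was not tested.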
